A study of Bos taurus with 32 samples.

Results

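The 10 genes described here were the most abundant of those whose transcripts were concentrated in the bovine pituitary. They were chosen from 27607 Ensembl gene IDs by level alone. The level was CPM, a gene's count divided by the library total and given per 1e6 counts. A gene entered when its mean pituitary CPM plus 0.5 was at least 8 times the mean plus 0.5 in each of the hypothalamus, testicle and adrenal, and the 10 with the highest pituitary mean were taken of the 100 genes that passed. The choice therefore used the tissue contrast, and tissue differences of these genes are given as a description without a test. It averaged over both embryo origins, so the origin comparison was not part of it. The rule proposes that most of the 10 are pituitary hormones. This could not be checked, because 0 of the 27607 IDs could be matched to a gene symbol here, and the genes are called by ID without a role.

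The libraries came from male Holstein calves of in vitro produced embryos (IVP, 4 calves, 3208, 3209, 5833 and 5841) and from control calves of in vivo embryos (MOET, 4 calves, 3213, 3217, 3218 and 5932). MOET embryos were conceived by insemination after ovarian superstimulation. Embryos of both kinds were transferred to synchronised recipient cows, and the calves were reared alike after birth. Pituitary, hypothalamus, testicle and adrenal were taken from each calf, which gave 32 libraries, each from 1 animal and 1 tissue. The calves were 98 to 104 days old, except for MOET calf 3213, which was 144 days old. Values of single calves are given in the order of the numbers above. The number of donor cows and sires behind the embryos was not used here.

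As background, the anterior pituitary consists of a few endocrine cell types, each of which makes 1 or a few peptide or glycoprotein hormones in very large amounts. Growth hormone, prolactin, the precursor of corticotropin, the gonadotropins and thyrotropin act on growth, lactation, the adrenal cortex, the gonads and the thyroid. The hypothalamus lies next to the gland and controls it through releasing and inhibiting factors, which reach it by the portal vessels and by way of the stalk. The testicle and the adrenal are targets of its hormones.

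Depth was alike over the libraries, with totals of 20164948 to 23380330 counts in the pituitary, 20178727 to 22170502 in the hypothalamus, 20258880 to 22149064 in testicles and 17357283 to 19483453 in adrenals. In the smallest library, 3 counts stood for 0.173 CPM, which was taken as the floor of detection; this floor covers counting error only. Transcript lengths were not matched, so CPM values of different genes are shares of counts and not of molecules. The markers of the 4 tissues could not be checked for want of symbols. No library of another tissue reached the lowest pituitary value of any of the 10 genes.

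The 10 genes together took 30.2% ± 4.65 of all counts in the pituitary (SD, n = 8), with single libraries between 23.4% and 37.7%. They took 0.111% ± 0.113 in the hypothalamus, 0.00881% ± 0.00149 in testicles and 0.00522% ± 0.00126 in adrenals (SD, n = 8 each). ENSBTAG00000015274 and ENSBTAG00000017220 made up most of this and were the first and second of all genes in the pituitary. ENSBTAG00000015274 averaged 186802 CPM and ENSBTAG00000017220 averaged 85749 CPM. By mean, ENSBTAG00000007897 (12654 CPM), ENSBTAG00000016138 (9496 CPM), ENSBTAG00000038735 (3689 CPM) and ENSBTAG00000046476 (1973 CPM) held ranks 4, 5, 11 and 20 among all genes. The mean of ENSBTAG00000007897 includes 60444 CPM in MOET calf 5932. Its median of 4497 CPM lay below that of ENSBTAG00000016138, 9126 CPM. The last 4 genes were far lower, with mean levels of 451.0 CPM for ENSBTAG00000054512, 403.3 CPM for ENSBTAG00000010860, 300.2 CPM for ENSBTAG00000010889 and 300.0 CPM for ENSBTAG00000009128, at ranks 137 to 244.

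**Figure D1:**
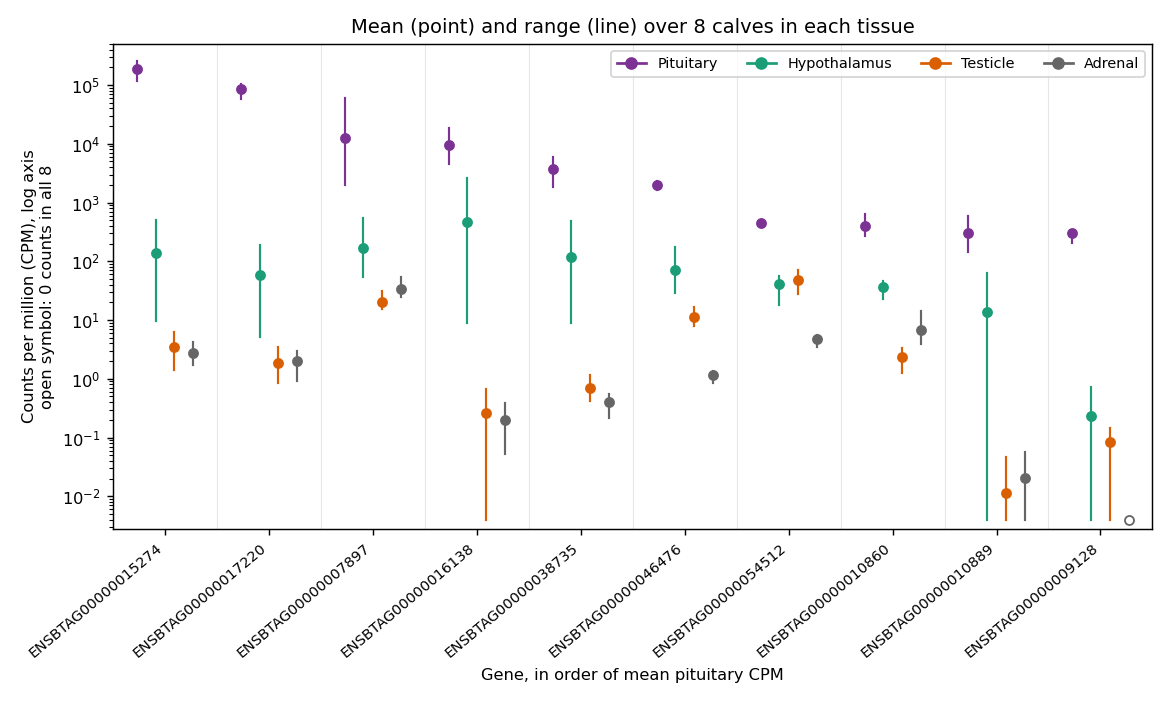
Levels of the 10 genes in the pituitary, hypothalamus, testicle and adrenal in CPM on a log axis, with the mean of 8 calves as a point, the range as a line and an open symbol where all 8 libraries had 0 counts. The pituitary range lies above every other tissue's range for each gene, and the hypothalamus holds the second place for 9 of the 10, with ENSBTAG00000054512 as the exception.

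Outside the pituitary the hypothalamus held the next highest mean for 9 of the 10 genes, but by very different distances. The pituitary mean of ENSBTAG00000017220 was 1494 times its hypothalamus mean, that of ENSBTAG00000015274 1337 times and that of ENSBTAG00000007897 76.1 times. For ENSBTAG00000016138, ENSBTAG00000010889, ENSBTAG00000046476 and ENSBTAG00000038735 the same ratio of means was between 20.2 and 30.7, and for ENSBTAG00000010860 it was 11.1. ENSBTAG00000054512 was the exception, with a testicle mean of 47.8 CPM and a hypothalamus mean of 40.5 CPM. Its testicle range (28.1 to 72.4 CPM) and its hypothalamus range (18.3 to 56.6 CPM) overlapped. Whether those tissues differed within calves was not tested.

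The low end differed from gene to gene as well. ENSBTAG00000009128 had the lowest hypothalamus and adrenal means of the 10, with 40 counts in all 8 hypothalami together, 14 in all testicles and 0 in all adrenals, against 52704 in all pituitaries. Its highest value outside the pituitary was 0.722 CPM. ENSBTAG00000010889 had 2 counts in all testicles and 3 in all adrenals, but reached 62.6 CPM in the hypothalamus. ENSBTAG00000007897 was readable everywhere, at 34.3 ± 9.59 CPM in the adrenal and 20.2 ± 6.18 CPM in the testicle (SD, n = 8 each), and these ranges overlapped. For ENSBTAG00000015274, ENSBTAG00000017220, ENSBTAG00000016138 and ENSBTAG00000038735 the testicle and adrenal ranges overlapped too, at means between 0.203 and 3.43 CPM. Only ENSBTAG00000046476 and ENSBTAG00000010860 had 4 tissue ranges of which no pair overlapped. ENSBTAG00000046476 ran down in the order pituitary, hypothalamus, testicle (11.5 ± 2.94 CPM) and adrenal (1.16 ± 0.153 CPM). In ENSBTAG00000010860 the adrenal (6.79 ± 3.17 CPM) came before the testicle (2.33 ± 0.737 CPM).

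At the edge of the choice, the last gene inside and the first outside were nearly equal in level. ENSBTAG00000009128 averaged 300.0 CPM in the pituitary, and the next gene by rank, ENSBTAG00000001136, averaged 298.9 CPM. With each calf left out in turn, 9 or 10 of the 10 genes stayed. Any loss was that of ENSBTAG00000010889 or ENSBTAG00000009128, with ENSBTAG00000001136 in its place. With medians in place of means ENSBTAG00000010889 was lost to that gene too. A fold limit of 16 kept 8 of the 10 and dropped ENSBTAG00000054512 and ENSBTAG00000010860. At the fold limit, ENSBTAG00000054512 was inside with a ratio of 9.35 to its next tissue. ENSBTAG00000003212 was just outside with a ratio of 7.60, although its pituitary mean of 7244 CPM held rank 6 among all genes.

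The spread between calves within the pituitary was uneven over the 10 genes. The highest of the 8 pituitaries exceeded the lowest by 31.0-fold for ENSBTAG00000007897, by 4.13-fold for ENSBTAG00000016138 and by 4.03-fold for ENSBTAG00000010889. It did so by 1.29-fold for ENSBTAG00000054512 and by 1.45-fold for ENSBTAG00000046476. Measured within origins on the log2 scale of CPM, the SD was 1.15 for ENSBTAG00000007897, higher than that of 99.2% of the 15807 genes tested. It was 0.76 for ENSBTAG00000010889 (98.3%) and 0.53 for ENSBTAG00000015274 (96.0%), where the median of all genes was 0.14. ENSBTAG00000046476, at 0.20, lay nearer to the median gene (67.7%).

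**Figure D2:**
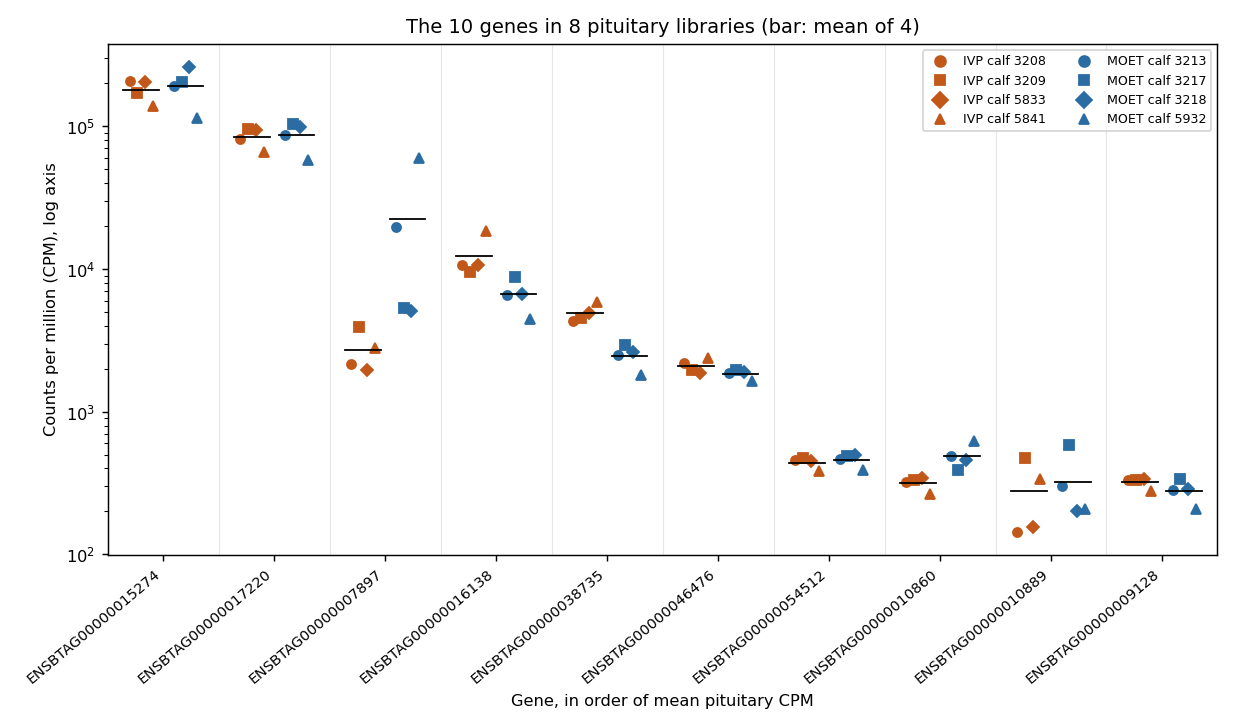
Levels of the 10 genes in the 8 pituitary libraries, in CPM on a log axis, with 1 symbol per calf, IVP calves left of MOET calves and the mean of 4 as a bar. ENSBTAG00000007897 spreads most, up to 60444 CPM in MOET calf 5932, and the IVP and MOET symbols are apart for ENSBTAG00000007897, ENSBTAG00000016138, ENSBTAG00000038735 and ENSBTAG00000010860.

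The first comparison asked whether embryo origin went with a different level of these genes in the pituitary itself. ENSBTAG00000038735 was higher in IVP calves, and ENSBTAG00000007897 and ENSBTAG00000010860 were lower. The other 7 genes, among them the most abundant pair, did not pass the test. In numbers, 3 of the 10 genes passed, 1 higher and 2 lower, where 15.3% of the 15807 genes tested passed, 7.51% higher and 7.78% lower (edgeR's quasi-likelihood test, adjusted by Benjamini-Hochberg, at 0.05). Their median was -0.14 as a log2 fold change, beside 0.00 over all genes tested. In bulk tissue, fewer cells of a type and less RNA per cell cannot be told apart, here and in all that follows.

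ENSBTAG00000007897 had 2164, 3928, 1953 and 2800 CPM in the IVP pituitaries, against 19570, 5305, 5065 and 60444 CPM in the MOET pituitaries. Every IVP value lay below every MOET value, and MOET calves 5932 and 3213 stood far above the other 2 MOET calves. The means were 2711 ± 888 CPM in IVP calves, against 22596 ± 26127 CPM in MOET calves (SD, n = 4 each). The log2 fold change was -3.01 ± 0.77 (SE, 95% interval -4.79 to -1.23), with an edgeR adjusted p of 0.0386. Without calf 5932 the log2 fold change was -1.98 (edgeR adjusted p = 0.0455), and without both 5932 and 3213, an alternative chosen after the data were seen, it was -1.11 (edgeR adjusted p = 0.0547). The call was also lost without calf 3208, 3209, 5833 or 5841 and without the low-count filter, at edgeR adjusted p of 0.0660 to 0.0954 and log2 fold changes of -3.24 to -2.90. Over all 17 alternatives it stayed negative, between -3.33 and -1.11, and its adjusted p ran from 0.00163 to 0.151. The size of this difference thus moved with those 2 MOET calves, and its direction was the same without them.

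ENSBTAG00000038735 had 4327, 4533, 4940 and 5855 CPM in the IVP pituitaries, against 2477, 2942, 2620 and 1818 CPM in the MOET pituitaries. The groups did not overlap, and each was narrow. The means were 4914 ± 677 CPM in IVP calves, against 2464 ± 473 CPM in MOET calves (SD, n = 4 each), and the log2 fold change was 0.91 ± 0.18 (SE, 95% interval 0.50 to 1.32, edgeR adjusted p = 0.0151).

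ENSBTAG00000016138 ran alongside it. It had 10694, 9472, 10689 and 18575 CPM in the IVP pituitaries, against 6538, 8781, 6725 and 4497 CPM in the MOET pituitaries. These groups did not overlap either, and IVP calf 5841 and MOET calf 5932 formed the ends of the range for both genes. The means were 12358 ± 4185 CPM in IVP calves, against 6635 ± 1750 CPM in MOET calves (SD, n = 4 each). The log2 fold change of 0.80 ± 0.26 (SE, 95% interval 0.21 to 1.39) missed the threshold, with an edgeR adjusted p of 0.0678. Under DESeq2's Wald test the adjusted p was 0.0484, where 2951 of 15500 genes passed. Under limma voom with quality weights, which weights each library, it was 0.00772, where 7561 of 15807 genes passed. Over the alternatives the adjusted p ran from 0.00772 to 0.649.

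ENSBTAG00000010860 had 323.5, 330.0, 343.4 and 266.6 CPM in the IVP pituitaries, against 492.2, 389.0, 455.2 and 626.7 CPM in the MOET pituitaries. All IVP values were below all MOET values, with the lowest in calf 5841 and the highest in calf 5932. The means were 315.9 ± 33.9 CPM in IVP calves, against 490.8 ± 100.2 CPM in MOET calves (SD, n = 4 each), and the log2 fold change was -0.68 ± 0.13 (SE, 95% interval -0.97 to -0.39, edgeR adjusted p = 0.0133). With ENSBTAG00000007897, ENSBTAG00000016138 and ENSBTAG00000038735, it made 4 of 10 genes whose IVP and MOET pituitaries did not overlap, where 22.5% of all genes tested did not.

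ENSBTAG00000015274, the gene with the most counts, had 208770, 171035, 205074 and 137927 CPM in the IVP pituitaries, against 191875, 205024, 259715 and 114997 CPM in the MOET pituitaries. The IVP range lay inside the MOET range. The log2 fold change was -0.18 ± 0.31 (SE, 95% interval -0.87 to 0.50, edgeR adjusted p = 0.705). ENSBTAG00000017220 likewise had its lowest values in calves 5841 (IVP, 65689 CPM) and 5932 (MOET, 57976 CPM), and a log2 fold change of -0.13 ± 0.25 (SE, 95% interval -0.70 to 0.44, edgeR adjusted p = 0.742).

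Of the remaining 4 genes, ENSBTAG00000046476 and ENSBTAG00000054512 were the steadiest. ENSBTAG00000046476 averaged 2105 ± 222 CPM in IVP calves, against 1840 ± 148 CPM in MOET calves, and ENSBTAG00000054512 averaged 440.4 ± 37.4 CPM in IVP calves, against 461.5 ± 51.3 CPM in MOET calves (SD, n = 4 each). Their log2 fold changes were 0.12 (95% interval -0.15 to 0.39) and -0.14 (95% interval -0.48 to 0.20). ENSBTAG00000009128 averaged 321.1 ± 28.2 CPM in IVP calves, against 278.9 ± 54.5 CPM in MOET calves, with a log2 fold change of 0.13 (95% interval -0.31 to 0.56). ENSBTAG00000010889 varied inside each origin, with 144.5, 470.4, 156.8 and 337.6 CPM in IVP against 299.3, 582.2, 202.1 and 209.1 CPM in MOET. Its log2 fold change was -0.31 (95% interval -1.43 to 0.81). The edgeR adjusted p of these 4 genes lay between 0.525 and 0.685.

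Without MOET calf 3213, the calf of 144 days, 0 of the 10 genes passed edgeR's test, in a fit of 7 libraries. The log2 fold changes were about as large as with that calf, at -3.05 for ENSBTAG00000007897, 0.89 for ENSBTAG00000038735 and -0.68 for ENSBTAG00000010860, with edgeR adjusted p of 0.111, 0.0602 and 0.0501. With age as a covariate 0 of the 10 passed, beside 1.68% of all genes. The log2 fold changes of these 3 genes were then -3.01, 0.88 and -0.66. Without calf 3213, 378 of all genes passed in place of 2417. Leaving out any of the other 7 calves kept ENSBTAG00000038735 and ENSBTAG00000010860 past the threshold. Over all alternatives, the adjusted p ran from 8.52e-06 to 0.407 for ENSBTAG00000038735 and from 1.13e-05 to 0.101 for ENSBTAG00000010860.

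**Figure D3:**
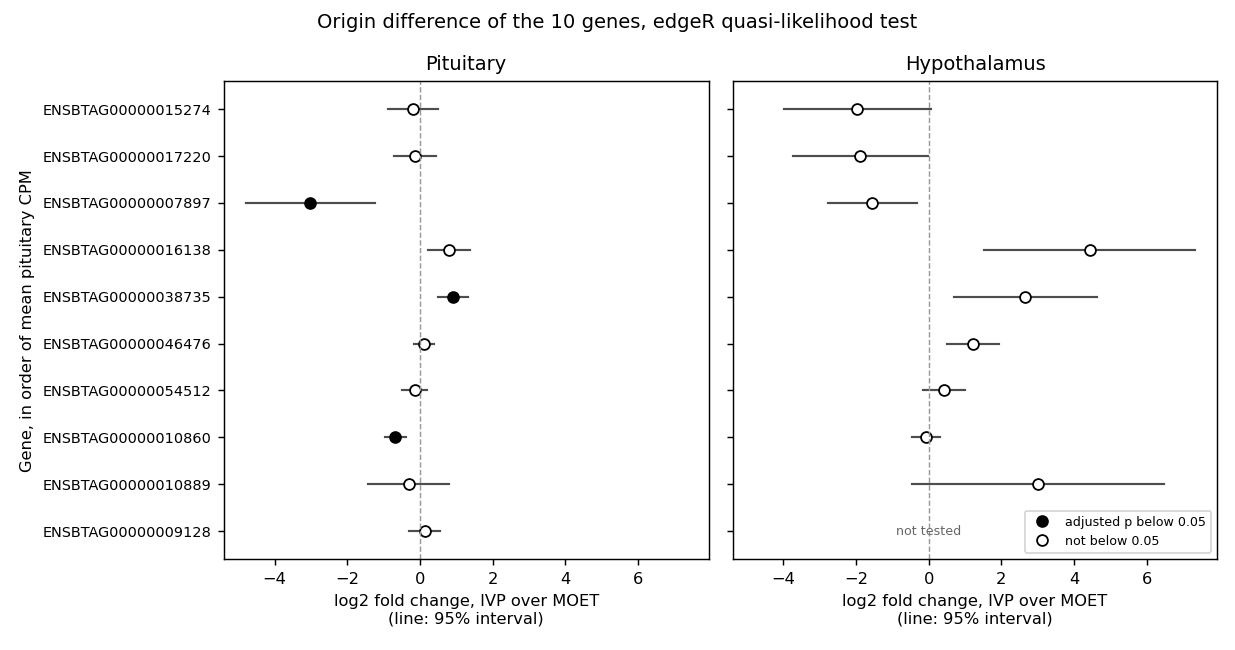
Log2 fold change of IVP over MOET for each of the 10 genes, with its 95% interval, in the pituitary and in the hypothalamus; filled points have an adjusted p below 0.05 in edgeR's quasi-likelihood test. In the pituitary 3 points are filled, in the hypothalamus 0 of 9, and the hypothalamus intervals are the wider ones for 8 of these 9, with ENSBTAG00000007897 as the exception.

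The share of counts taken by the 10 genes was 28.8% ± 3.82 in IVP pituitaries and 31.5% ± 5.56 in MOET pituitaries (SD, n = 4 each), and the ranges overlapped. The difference, IVP minus MOET, was -2.69 percentage points; it was -0.640 without calf 3218, -0.897 without calf 5841 and -5.11 without calf 5932. The lowest shares were in IVP calf 5841 (23.4%) and MOET calf 5932 (24.3%), which also had the lowest levels of the most abundant pair. In IVP calf 5841 the 8 genes other than that pair took 3.09% of counts, and in MOET calf 5932 6.98%, beside 1.78% to 3.20% in the remaining 6 pituitaries. The most abundant of those 8 was ENSBTAG00000016138 in IVP calf 5841, at 18575 CPM, and ENSBTAG00000007897 in MOET calf 5932, at 60444 CPM.

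Ratios within a library do not depend on its total, and they showed which genes moved together. The ratio of ENSBTAG00000015274 to ENSBTAG00000017220 stayed within 1.78 to 2.61 over the 8 pituitaries, although each of the pair varied. The ratio of ENSBTAG00000016138 to ENSBTAG00000038735 stayed within 2.09 to 3.17. Both genes were high against ENSBTAG00000015274 in IVP calves: the ratio of ENSBTAG00000016138 to it was 0.0512 to 0.135 in IVP and 0.0259 to 0.0428 in MOET, and that of ENSBTAG00000038735 was 0.0207 to 0.0424 in IVP and 0.0101 to 0.0158 in MOET. The origins did not overlap in either ratio. ENSBTAG00000007897 over ENSBTAG00000015274 was 0.00952 to 0.0230 in IVP and 0.0195 to 0.526 in MOET, so here the origins overlapped.

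**Figure D4:**
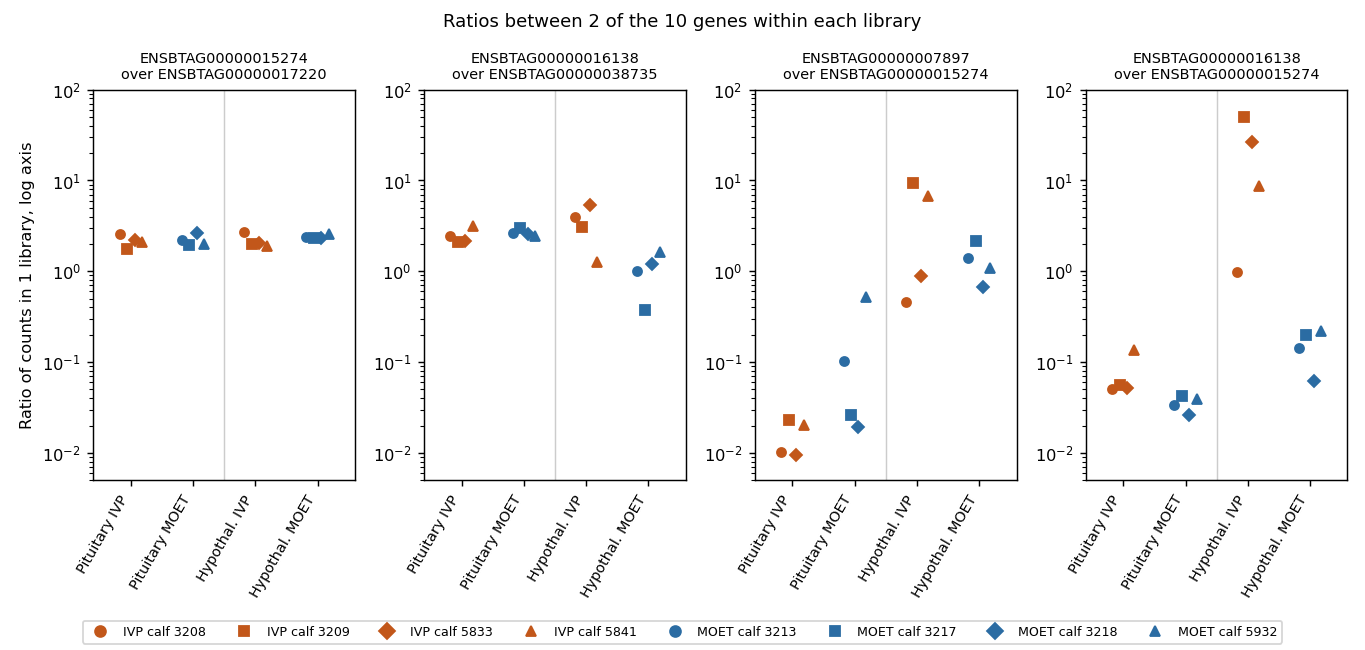
Ratios of counts between pairs of the 10 genes within each library, on a log axis, for pituitary and hypothalamus libraries of IVP and MOET calves, with 1 symbol per calf. The ratio of ENSBTAG00000015274 to ENSBTAG00000017220 stays between 1.78 and 2.73 in all 16 libraries, whereas the ratio of ENSBTAG00000016138 to ENSBTAG00000015274 in the hypothalamus is 0.974 to 49.5 in IVP calves and 0.0626 to 0.220 in MOET calves.

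Over the 8 pituitaries, the 10 genes were set against each other by the correlation of log2 CPM. The values are a description, since the 8 libraries share their scaling and fall into 2 origins. ENSBTAG00000015274, ENSBTAG00000017220 and ENSBTAG00000054512 went together (Pearson's r of 0.93 to 0.97, Spearman's rho of 0.81 to 0.93), and ENSBTAG00000009128 was near them (r of 0.82 to 0.90). ENSBTAG00000016138 and ENSBTAG00000038735 went together (r = 0.94, rho = 0.98). ENSBTAG00000007897 ran against them (r = -0.91 and -0.96), as did ENSBTAG00000010860 (r = -0.90 and -0.88).

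The groupings differed once the origin means were removed. ENSBTAG00000007897 then ran against 7 of the other 9 genes, with r of -0.92 to -0.77. On the TMM scale MOET calf 5932 had the highest ENSBTAG00000007897 and the lowest level of each of those 7. The part of that calf in these and the following values was not tested. Over all 8 libraries Spearman's rho of ENSBTAG00000007897 was -0.93 with ENSBTAG00000016138 and -0.88 with ENSBTAG00000038735, but -0.55 to 0.07 with the rest of the 7. There, ENSBTAG00000007897 had had r of -0.42 to -0.27 with ENSBTAG00000015274, ENSBTAG00000017220 and ENSBTAG00000054512. ENSBTAG00000038735 then went with those 3 and with ENSBTAG00000009128 (r of 0.67 to 0.77), and still with ENSBTAG00000016138 (r = 0.90). ENSBTAG00000010860 had r of -0.78 with ENSBTAG00000016138 and -0.51 with ENSBTAG00000038735. ENSBTAG00000010889 had r of -0.12 to 0.31 with the other genes over all 8 libraries. With the origin means removed it had -0.69 with ENSBTAG00000010860, and 0.43 and 0.41 with ENSBTAG00000016138 and ENSBTAG00000038735.

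Among 15754 genes compared, the one outside the set most like ENSBTAG00000016138 was ENSBTAG00000010529 (r = 0.996, mean of 33.9 CPM on the TMM scale), and the one most like ENSBTAG00000046476 was ENSBTAG00000008218 (r = 0.99, 144.1 CPM). The gene most like ENSBTAG00000054512 was ENSBTAG00000000705 (r = 0.99, 167.1 CPM), and the gene most like ENSBTAG00000009128 was ENSBTAG00000001886 (r = 0.99, 60.8 CPM). These 4 similar genes had means above 10 CPM. For the other 6 of the 10 the most similar gene had r of 0.97 to 0.99 and a mean level of only 0.760 to 5.94 CPM. These are the highest of many correlations over 8 libraries, and an r of this size is reached by some gene for each of the 10.

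In the hypothalamus the same genes were found at low levels that varied widely between calves. ENSBTAG00000016138 had 116.8, 779.3, 2624 and 84.6 CPM in the IVP hypothalami, against 22.7, 9.02, 10.9 and 109.2 CPM in the MOET hypothalami. IVP calves 5833 and 3209 were far above the rest, and MOET calf 5932 lay within the IVP range. ENSBTAG00000038735 had 29.6, 253.7, 490.2 and 66.3 CPM in IVP, against 22.3, 24.1, 8.97 and 66.3 CPM in MOET, with the same 2 IVP calves on top. ENSBTAG00000010889 followed them, with 3.53, 30.7, 62.6 and 0.0491 CPM in IVP, against 1.17, 0, 0.595 and 9.29 CPM in MOET. In these 3 genes calf 5833 was highest and calf 3209 second, an order not found in the pituitary, where the highest ENSBTAG00000016138 and ENSBTAG00000038735 levels were those of IVP calf 5841.

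The most abundant pair behaved in another way. ENSBTAG00000015274 had 119.9, 15.8, 100.1 and 9.72 CPM in the IVP hypothalami, against 157.9, 44.9, 174.1 and 495.4 CPM in the MOET hypothalami. The lowest values were those of IVP calves 5841 and 3209, and the highest that of MOET calf 5932, whose pituitary had the lowest. ENSBTAG00000017220 kept to it, at a ratio of 1.90 to 2.73 over the 8 hypothalami. ENSBTAG00000007897 had 54.5, 147.7, 89.7 and 65.3 CPM in IVP, against 222.9, 96.7, 117.8 and 535.8 CPM in MOET. Its highest hypothalamus was that of calf 5932 and its second that of calf 3213, the same calves as in the pituitary.

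**Figure D5:**
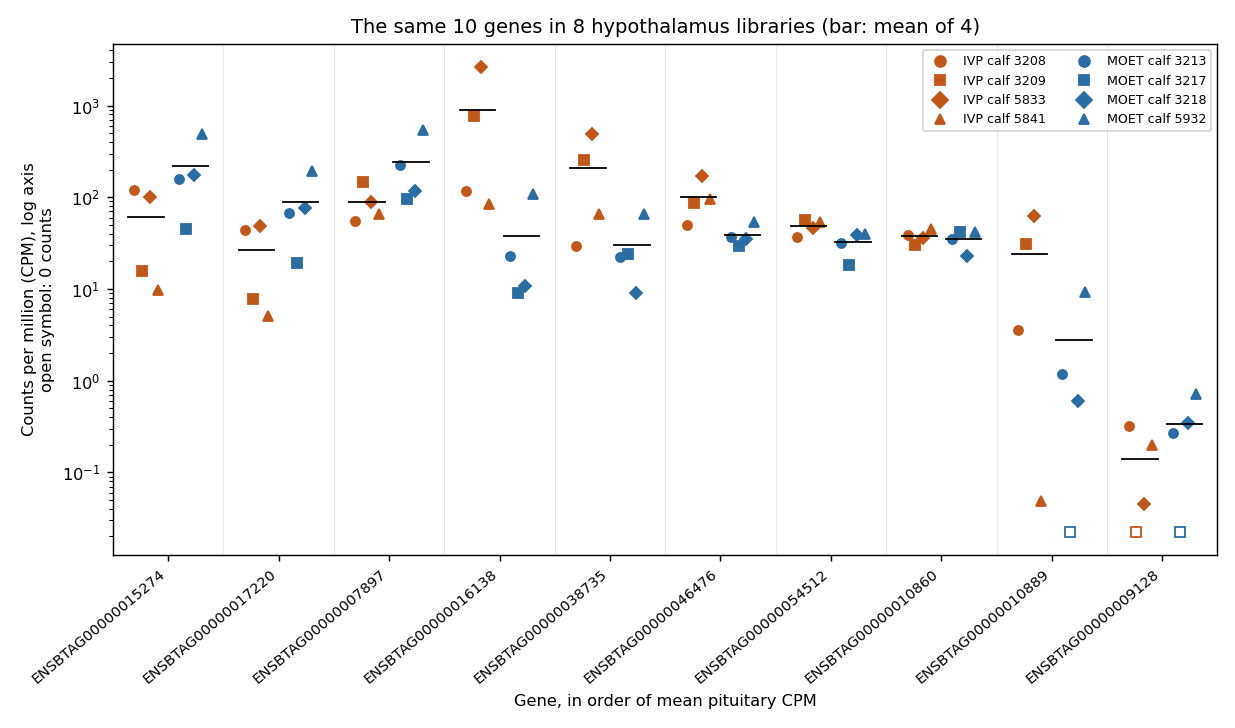
Levels of the same 10 genes in the 8 hypothalamus libraries, in CPM on a log axis, with 1 symbol per calf, IVP calves left of MOET calves, the mean of 4 as a bar and open symbols for 0 counts. ENSBTAG00000016138 runs from 9.02 CPM to 2624 CPM, whereas ENSBTAG00000010860 stays between 22.8 and 45.5 CPM.

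None of these differences passed the test over all genes. Of the 10 genes, 9 had enough counts to be tested, and 0 passed edgeR's quasi-likelihood test, adjusted by Benjamini-Hochberg, where 0.056% of 16066 genes did. At an unadjusted p below 0.05 there were 5, beside 24% of all genes, and DESeq2's Wald test called 3, namely ENSBTAG00000016138, ENSBTAG00000038735 and ENSBTAG00000046476, all higher in IVP. DESeq2 called 8.1% of all genes there, 3.63% upwards. With all 32 libraries in 1 edgeR fit, 6 of the 10 genes passed, 4 higher and 2 lower, beside 11.1% of all genes. That fit takes 1 estimate of spread per gene over the 4 tissues, and ENSBTAG00000009128 entered it through its pituitary counts. Within origins the SD of log2 CPM was 1.98 in the hypothalamus and 0.45 in the pituitary for ENSBTAG00000016138. For ENSBTAG00000015274 it was 1.62 and 0.53. A shared estimate can thus understate the spread of such genes in the hypothalamus. The IVP and MOET hypothalami overlapped in all 9, where 9.99% of all genes tested did not overlap. The log2 fold change was 4.44 ± 1.28 for ENSBTAG00000016138 (SE, 95% interval 1.53 to 7.34, edgeR adjusted p = 0.154) and 2.65 ± 0.87 for ENSBTAG00000038735 (SE, 95% interval 0.69 to 4.62, edgeR adjusted p = 0.163). For ENSBTAG00000046476, with 50.3, 85.8, 172.8 and 96.1 CPM in IVP against 36.7, 29.2, 35.0 and 53.7 CPM in MOET, it was 1.22 ± 0.32 (SE, 95% interval 0.50 to 1.94, edgeR adjusted p = 0.148). Only the lowest IVP value and the highest MOET value of that gene crossed.

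On the other side, the log2 fold change in the hypothalamus was -1.96 for ENSBTAG00000015274, -1.88 for ENSBTAG00000017220 and -1.55 for ENSBTAG00000007897, with edgeR adjusted p of 0.215, 0.205 and 0.169. ENSBTAG00000010860 was level, with a log2 fold change of -0.06 and a 95% interval of -0.45 to 0.32. The spread behind these values was large. Within origins the SD of log2 CPM was 1.98 for ENSBTAG00000016138, 1.62 for ENSBTAG00000015274 and 1.49 for ENSBTAG00000038735, where the median of 16066 genes was 0.26. ENSBTAG00000010860 lay near the median gene, at 0.27.

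Whether the origin difference itself differed between gland and hypothalamus was tested directly on the 16 libraries of both tissues. By edgeR's quasi-likelihood test 0 of the 10 genes passed, where 0.312% of 16990 genes did, and 4 had an unadjusted p below 0.05, beside 16.2% of all genes. The lowest was that of ENSBTAG00000046476, with a difference, pituitary minus hypothalamus, of -1.08 ± 0.36 on the log2 scale (SE, edgeR adjusted p = 0.170). For ENSBTAG00000016138 it was -3.62 ± 1.28 (SE, edgeR adjusted p = 0.186). With the calf as a replicate block, which pairs the tissues of an animal, 0 of the 10 genes passed as well. ENSBTAG00000009128 entered these fits through its pituitary counts. It had 40 counts in all hypothalami, so they could not decide on it.

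In the testicle 7 of the 10 genes could be tested and 0 passed edgeR's quasi-likelihood test, where 0.00612% of 16352 genes did. DESeq2's Wald test also called 0 of them and 1.8% of all genes, and 2 had an unadjusted p below 0.05, beside 9.04% of all genes. These were ENSBTAG00000054512, with a log2 fold change of 0.57 (95% interval 0.11 to 1.03, edgeR adjusted p = 0.433), and ENSBTAG00000046476, with 0.48 (95% interval 0.06 to 0.90, edgeR adjusted p = 0.478). ENSBTAG00000054512 had 72.4, 47.6, 49.8 and 51.2 CPM in the IVP testicles, against 40.2, 52.4, 28.1 and 40.3 CPM in the MOET testicles. IVP calf 3208 was above the rest, and MOET calf 3217 lay inside the IVP range. After TMM scaling this gene did not overlap between origins, which held for 7.29% of all genes tested.

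Of the 6 genes with enough counts in the adrenal, 3 rose in IVP calves, in a tissue where 39.3% of 15437 genes passed edgeR's quasi-likelihood test and 20.8% did so upwards. ENSBTAG00000007897 had 31.2, 53.7, 40.4 and 38.7 CPM in the IVP adrenals, against 27.5, 31.0, 26.7 and 25.1 CPM in the MOET adrenals. The groups did not overlap, although IVP calf 3208 and MOET calf 3217 were close. After TMM scaling the other 2 genes did not overlap either, in a tissue where 39.3% of all genes did not. The log2 fold change was 0.77 ± 0.18 (SE, 95% interval 0.36 to 1.18, edgeR adjusted p = 0.0150). ENSBTAG00000010860 had 5.69, 14.0, 8.19 and 6.31 CPM in IVP, against 4.84, 3.86, 5.79 and 5.63 CPM in MOET. IVP calf 3209 was the highest, the lowest IVP value lay just inside the MOET range, and the log2 fold change was 0.97 ± 0.30 (SE, 95% interval 0.28 to 1.66, edgeR adjusted p = 0.0343).

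ENSBTAG00000054512 was the last of the 3, at 5.54, 5.37, 5.11 and 4.26 CPM in the IVP adrenals, against 4.32, 3.49, 4.53 and 4.78 CPM in the MOET adrenals. IVP calf 5841 lay among the MOET calves. The log2 fold change was 0.44 ± 0.14 (SE, 95% interval 0.13 to 0.75, edgeR adjusted p = 0.0344). These are low levels, at 65 to 961 counts per library over the 3 genes. Without calf 3218 0 of the 3 passed edgeR's test, and without calf 3213, 3217, 5833 or 5932 only 1 did.

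ENSBTAG00000007897 and ENSBTAG00000010860 were thus lower in IVP pituitaries and higher in IVP adrenals. The difference of the log2 fold changes, pituitary minus adrenal, was tested after this had been seen, on the 16 libraries of both tissues. It was -3.79 ± 0.78 for ENSBTAG00000007897 (SE, 95% interval -5.46 to -2.12, edgeR adjusted p = 0.00240) and -1.65 ± 0.33 for ENSBTAG00000010860 (SE, 95% interval -2.35 to -0.96, edgeR adjusted p = 0.00197). ENSBTAG00000054512 passed too, at -0.59 ± 0.22 (SE, edgeR adjusted p = 0.0411), without having passed in the pituitary alone. In all, 3 of the 10 genes passed, each with a difference below 0, where 41.2% of 16751 genes passed and 22.6% did so below 0. Only 6 of the 10 had enough counts to be tested in the adrenal alone. ENSBTAG00000016138, ENSBTAG00000038735, ENSBTAG00000010889 and ENSBTAG00000009128 entered this fit through their pituitary counts. They had 30, 60, 3 and 0 counts in all adrenals, so the fit could not decide on them. With the calf as a replicate block 3 genes passed as well, and without any 1 calf 2 or 3 did. ENSBTAG00000007897 and ENSBTAG00000010860 passed in each of these fits, none of which had a term for age. ENSBTAG00000054512 passed in 3 of 11 alternatives, with edgeR adjusted p up to 0.124, and was lost without each of the calves other than 5932.

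Growth was the bodily trait that could be set against these genes. Daily gain, the weight gained since birth over the age, was 0.990, 0.864, 0.748 and 0.929 kg in the IVP calves, against 0.931, 0.941, 0.735 and 0.731 kg in the MOET calves. With origin in the model, 0 of the 10 genes had a slope on daily gain in the pituitary that passed edgeR's quasi-likelihood test, where 0% of 15807 genes did, and 0 of the 10 had an unadjusted p below 0.05, beside 1.83% of all genes. The lowest unadjusted p was 0.0668, for ENSBTAG00000010860, with a slope of -1.20 on the log2 scale per kg (95% interval -2.50 to 0.10). With 8 calves the intervals were wide: that of ENSBTAG00000015274 ran from -4.04 to 3.55 per kg.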

How the data were processed

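Poly(A)-selected RNA libraries without strand information, from 4 tissues of 8 calves, were used. Alignment with STAR 2.7 to bosTau9 and counting with HTSeq are named per the submitters' processing notes; further settings were not used here. The authors deposited whole-number counts for each Ensembl ID, with 0 rows that name no gene and 0 columns of another series. Without strand, overlapping antisense genes cannot be told apart, and near-identical genes may share reads.

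Printed CPM are counts over the library total. In each tissue all genes that passed edgeR's filterByExpr (minimum count 10, total 15) were scaled with TMM and tested for IVP over MOET with the quasi-likelihood test (robust glmQLFit). The p-values were adjusted by Benjamini-Hochberg over all genes tested, at 0.05. The SE is the log2 fold change over the root of F. Non-overlap over all genes was taken on TMM-scaled CPM. Correlations used log2 CPM with a prior count of 2. The daily gain slope had origin as a covariate. Versions were DESeq2 1.42.0, edgeR 4.0.16, limma 3.58.1 and R 4.3.3, and figures were drawn with matplotlib 3.10.9 in Python 3.11.15. The scripts were tested on simulated data.

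Among 48 pairs of libraries of 1 group 0 were identical (chi-square per degree of freedom 5.12 to 189). Animal numbers in the labels pair the tissues of a calf, and never an IVP with a MOET calf. The deviations of a calf from its group mean in pituitary and hypothalamus correlated at -0.13 to 0.40. Alternatives were DESeq2 size factors and Wald test, limma voom, no TMM, a fit of all 32 libraries, no low-count filter, a term for age, a block for the calf, and leaving out each calf. The 10 genes, the lists and the tests were chosen with earlier results of these data known. The named genes are the 10, those just outside the limits of the choice, and the most similar gene of each. Planned marker and pathway lists needed symbols and were not run.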

Additional observations from a re-analysis of the deposited data

Results flagged for a closer look

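Dixon's criterion for a value set far apart from the other 3 was applied to 80 groups of 4 calves, 72 for single genes with more than 3 counts in a library and 8 for the share of the 10 genes together. It was met in 6, all for single genes. For independent values from a normal distribution, chance meets it in about 1 in 20. CPM values need not follow that distribution and the 80 groups share calves, so this rate is only a guide. In the pituitary, IVP calf 5841 had 18575 CPM of ENSBTAG00000016138, beside 9472 to 10694 CPM in the other IVP calves, and 278.9 CPM of ENSBTAG00000009128, beside 331.6 to 339.0 CPM. In the hypothalamus, MOET calf 5932 had 109.2 CPM of ENSBTAG00000016138, beside 9.02 to 22.7 CPM in the other MOET calves, and 9.29 CPM of ENSBTAG00000010889, beside 0 to 1.17 CPM. In the testicle, IVP calf 3209 had 31.6 CPM of ENSBTAG00000007897, beside 15.1 to 17.7 CPM in the other IVP calves. IVP calf 3208 had 72.4 CPM of ENSBTAG00000054512 in the testicle, beside 47.6 to 51.2 CPM. Calves 5841 and 5932 account for 4 of the 6.

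The origin effect differed between pituitary and adrenal, by edgeR's quasi-likelihood test of the difference, for ENSBTAG00000007897 (-3.79, pituitary minus adrenal on the log2 scale), ENSBTAG00000010860 (-1.65) and ENSBTAG00000054512 (-0.59). For the last of these the call held in 3 of 11 alternatives, with edgeR adjusted p up to 0.124. This test was added after the data were seen.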

How the results depend on the processing

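Values are counts of the 10 genes past the threshold unless said otherwise. In the pituitary (3) the count was 1 with all 32 libraries in 1 fit, beside 340 of all 18242 genes. With age as a covariate it was 0, beside 266 of 15807. It was 1 without MOET calves 3213 and 5932 together (chosen after the data were seen), beside 750 of 16181. With each calf left out it was 0 to 3, beside 378 to 2822 of all genes. In the hypothalamus (0) it was 3 under DESeq2's Wald test, beside 1250 of 15439 genes. With all 32 libraries in 1 fit it was 6, beside 2018 of 18242. In the adrenal (3) it was 1 in the fit of 32, beside 4872 of 18242 genes, and 1 with age, beside 2905 of 15437. With each calf left out it was 0 to 3, beside 2424 to 8234 of all genes. In the test of pituitary minus hypothalamus, the calf as a replicate block gave 0, as without it, and 15 genes in all against 53. The block changed no call of the 10 genes in the test of pituitary minus adrenal. The count of all genes past the threshold ran from 266 to 7561 in the pituitary (2417), 1 to 2018 in the hypothalamus (9), 0 to 289 in testicles (1) and 2424 to 8234 in adrenals (6068). The share of the 10 genes in pituitary counts differed by -2.69 percentage points in IVP minus MOET, and by -5.11 to -0.640 with each calf left out. As a percent of the counts outside them times the library's TMM factor, the 10 genes stood at 40.3% in IVP and 48.9% in MOET. That difference was -8.64 percentage points, and it includes the TMM factor as well as the changed denominator.

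Of 556 alternatives for single genes, 497 kept direction and call, 40 lost a call and 11 gained one. Only a gene past the threshold had a call to lose. In the pituitary it was kept in 8, 14 and 13 of 17 alternatives for ENSBTAG00000007897, ENSBTAG00000038735 and ENSBTAG00000010860. In the adrenal it was kept in 11, 7 and 5 of 13 for ENSBTAG00000007897, ENSBTAG00000010860 and ENSBTAG00000054512. For pituitary minus adrenal it was kept in 11, 11 and 3 of 11 for the same genes, in that order. Those 11 were the calf block, DESeq2 size factors, no low-count filter and each calf left out. A term for age, a fit of all 32 libraries and DESeq2's Wald test were not run for this difference. Its counts therefore cannot be compared with those of the single tissues. The remaining 8 of the 556 turned direction, in all cases for genes not past the threshold. Pituitary log2 fold changes ran from -0.40 to 0.0715 with each calf left out for ENSBTAG00000015274, -0.33 to 0.00134 for ENSBTAG00000017220, -0.70 to 0.15 for ENSBTAG00000010889 and -0.0368 to 0.24 for ENSBTAG00000009128. That of ENSBTAG00000010860 in the hypothalamus ran from -0.20 to 0.0289. Without calves 3213 and 5932, ENSBTAG00000009128 was at -0.13 and ENSBTAG00000046476 at -0.0524. The slope of ENSBTAG00000010860 on birth weight was 0.00486. The cause was not tested.

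With 4 calves per group, and low counts outside the pituitary, small differences were not detectable, and 3 or fewer counts were read as no more than the floor.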
